A study of Homo sapiens with 8 samples.

Results

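The genes described here encode the core and accessory subunits of Polycomb repressive complex 2 (PRC2): EZH1, EZH2, EED, SUZ12, JARID2, MTF2, PHF19, PHF1, AEBP2 and RBBP7. They were read through every probe set of the array annotated to 1 of these 10 genes and to no other. There are 27 probe sets of 54675 on the array, between 1 and 5 a gene, and all 10 genes of 19776 were represented. Of the 27, 24 lay above the filter on dim probe sets, which keeps those with a mean level above the median of all probe sets. The 3 below it belong to EZH1, SUZ12 and JARID2. A further SUZ12 probe set that also matches the pseudogene SUZ12P1 was set apart.

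PRC2 places methyl groups on lysine 27 of histone H3, a mark of repressed chromatin. EZH2 or its paralogue EZH1 supplies the catalytic activity, which needs the scaffolds EED and SUZ12, and the histone-binding proteins RBBP4 and RBBP7 complete the core. The accessory subunits define alternative forms of the complex: the Polycomb-like proteins PHF1, MTF2 and PHF19 are found in one form, and JARID2 with AEBP2 in the other. BMI1, the gene knocked down here, belongs to the other Polycomb complex, PRC1, whose chromobox subunits bind the mark that PRC2 makes. EZH2 is highly expressed in dividing cells and has been studied as a repressor of differentiation genes in neuroblastoma.

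Expression was measured on Affymetrix HG-U133 Plus 2.0 arrays in 4 established human neuroblastoma lines: SK-N-DZ, SK-N-BE, SH-SY5Y and NB-39-nu. In each line 1 array held cells infected with the pLKO.1 control lentivirus (shCont, also labelled mock) and 1 array held cells infected with a lentivirus carrying the hairpin shBMI1-1 against BMI1. The labels put RNA collection at day 8 to 14 of infection without a day per sample. A condition therefore has 4 arrays, 1 a line, a line has no replicate, and only 1 hairpin was used. Values are array signals on a linear scale, which cannot be compared between probe sets; a change is the log2 ratio of signal + 8, knockdown over control, within a line.

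All arrays had a trimmed mean signal of 500 and medians from 69.9 to 79.8. BMI1 signal was lower after knockdown in 4 of 4 lines, with 24.6% left in NB-39-nu, 39.4% in SK-N-DZ, 65.0% in SK-N-BE and 65.5% in SH-SY5Y. Its mean log2 change was -1.15 ± 0.67 (SD, n = 4 lines), and BMI1 itself did not pass in the fit of all probe sets (unadjusted p = 4.4e-04, limma adjusted p = 0.479), so a miss in this design does not show that a gene was unaltered. Of 8 measured markers of sympathoadrenal neuroblastoma, 7 were above the table's median signal on all 8 arrays, among them PHOX2A, GATA3 and CHGA. TH, which encodes the first enzyme of catecholamine synthesis, was above it on 3 arrays. Of 5 fibroblast markers 2 were above it on every array, and their summed signal ran from 926 to 5790 in the controls and from 847 to 14732 after knockdown, with LUM alone between 270 and 14204. No Schwann cell, blood or epithelial marker was above it on all arrays. SOX10, CD14 and CDH1 were below it on every array. EPCAM and HBB were above it on 6 arrays each, S100B on 4, PTPRC on 2 and KRT19 on 1. The part of these markers in the results below was not tested.

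After BMI1 knockdown none of the 10 PRC2 genes passed the test over all genes. In the limma fit with cell line as a block, 0 of 10 had an adjusted p under 0.05, beside 0.0101% of the 9888 genes tested. At an unadjusted p under 0.05 there was 1 of 10, JARID2, beside 9.33% of all genes. JARID2 was also the 1 member higher in all 4 lines, where 10.6% of all genes were, and 0 members were lower in all 4, where 7.65% of all genes were. The members' median log2 change was 0.09, with 7 higher and 3 lower in the mean, and that of all genes was 0.03. The members' counts lie near these background shares.

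**Figure D1:**
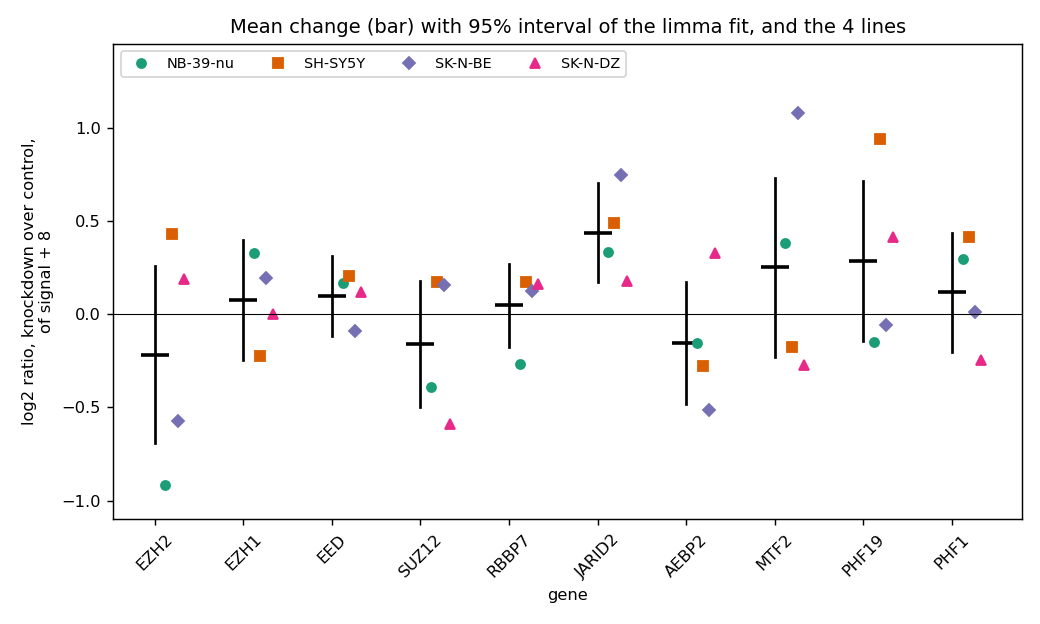
Log2 ratio of signal + 8, knockdown over control, for the probe set with the highest mean of each gene. Horizontal bars are means over the 4 lines, vertical bars the 95% interval of the limma fit, and symbols the lines; the interval of JARID2 runs from 0.17 to 0.70 and those of the other 9 genes include 0.

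Among the catalytic subunits, EZH2 was lower after knockdown in NB-39-nu and SK-N-BE and higher in SH-SY5Y and SK-N-DZ. Its 1 probe set, 203358_s_at, read 6200.2 in the control and 3278 in the knockdown array of NB-39-nu, which leaves 52.9%. In SK-N-BE it read 1205 and 807, which leaves 67.0%. The signal went from 2478 to 3348 in SH-SY5Y, and SK-N-DZ had 5486 before and 6253 after. The control and knockdown groups overlap over almost their whole range. In bulk RNA, fewer cells of a kind and less RNA per cell cannot be told apart. The log2 ratios were -0.92 for NB-39-nu, -0.57 for SK-N-BE, 0.43 for SH-SY5Y and 0.19 for SK-N-DZ. They averaged -0.22 ± 0.63 (SD over n = 4 lines; SE 0.21; limma adjusted p = 0.768), with a 95% interval from -0.69 to 0.26. Without NB-39-nu the mean was 0.016, so its sign rests on that line.

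The start regions of EZH2, PHF19 and JARID2 are shown because EZH2 is a textbook target of E2F factors, PHF19 had the sign of EZH2 in each line by its brightest probe set, and JARID2 alone was higher in all lines. The windows come from RefSeq on GRCh38.p14 and hold 250 bases before and 50 bases from the annotated start, 5′ to 3′ on the gene's strand. Capitals mark a match to an E2F motif, searched on both strands as TTTGGCGC, TTTCCCGC, TTTCGCGC and TTTGCCGC.
EZH2, chr7:148884242-148884541, minus strand: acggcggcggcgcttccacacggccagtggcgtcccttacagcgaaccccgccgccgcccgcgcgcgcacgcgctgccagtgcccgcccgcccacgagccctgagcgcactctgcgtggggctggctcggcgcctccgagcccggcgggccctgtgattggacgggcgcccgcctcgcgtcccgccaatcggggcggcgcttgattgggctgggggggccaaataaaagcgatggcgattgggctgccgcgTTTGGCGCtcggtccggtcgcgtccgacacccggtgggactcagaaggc
PHF19, chr9:120877139-120877438, minus strand: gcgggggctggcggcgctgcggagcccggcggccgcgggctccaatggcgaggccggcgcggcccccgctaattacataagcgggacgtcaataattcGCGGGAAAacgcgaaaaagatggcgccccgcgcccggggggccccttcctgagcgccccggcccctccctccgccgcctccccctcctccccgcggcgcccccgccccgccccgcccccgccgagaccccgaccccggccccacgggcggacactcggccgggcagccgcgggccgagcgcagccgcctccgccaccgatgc
JARID2, chr6:15245819-15246118, plus strand: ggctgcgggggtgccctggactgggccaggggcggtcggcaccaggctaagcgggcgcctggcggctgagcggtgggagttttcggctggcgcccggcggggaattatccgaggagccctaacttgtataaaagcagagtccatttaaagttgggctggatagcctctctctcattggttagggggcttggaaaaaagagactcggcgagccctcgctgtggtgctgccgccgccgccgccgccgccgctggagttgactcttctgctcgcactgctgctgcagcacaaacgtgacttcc
The EZH2 match, TTTGGCGC on the gene's strand, begins 1 base after the start base. The PHF19 match, TTTCCCGC on the opposite strand, begins 152 bases before the start. No match lies in the JARID2 window shown. EZH2, PHF19 and JARID2 each have another annotated start, whose window is not printed and holds no match. For EZH2 and PHF19 the window shown is thus the one with a match. RefSeq gave 14 windows for the 10 members, and 6 windows, 1 each of EZH1, EZH2, SUZ12, MTF2, PHF19 and AEBP2, held a match, as did 3.315% of all 35116 windows and 5.06% of the windows of genes tested here. A match describes letters, not binding.

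The paralogue EZH1, which has weaker methyltransferase activity and is typical of non-dividing cells, gave different answers with different probe sets. Signals of the brightest, 32259_at, went from 697 (control) to 877 (knockdown) in NB-39-nu, from 966 to 827 in SH-SY5Y, from 843 to 843 in SK-N-DZ, and from 572 to 656 in SK-N-BE. It was higher in NB-39-nu and SK-N-BE, the lines where EZH2 was lower, lower in SH-SY5Y and level in SK-N-DZ. The next brightest, 203249_at, was lower in NB-39-nu (300.3 to 263), SH-SY5Y (456 to 388) and SK-N-BE (256 to 244), and higher in SK-N-DZ (316 to 350). The 2 disagree in direction in NB-39-nu and SK-N-BE, so the direction of EZH1 there is uncertain. The mean log2 change was 0.07 ± 0.24 (SD, n = 4 lines) with 32259_at and -0.08 ± 0.17 with 203249_at. Of the dimmer probe sets, 239197_s_at had a mean of 0.53 ± 0.57 with all signals between 56.6 and 212, and 239198_at one of -0.11 ± 0.52. EZH1 did not pass (limma adjusted p = 0.890), and without NB-39-nu the mean of 32259_at was -0.0091.

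The scaffold EED, which binds the methylated histone tail, differed little. Its bright probe set, 209572_s_at, went from 4468 (control) to 5014 (knockdown) in NB-39-nu, from 2587 to 2979 in SH-SY5Y, from 6657 to 7223 in SK-N-DZ, and from 4446 to 4185 in SK-N-BE. It was slightly higher in 3 lines and slightly lower in SK-N-BE. The mean was 0.10 ± 0.13 (SD, n = 4 lines; limma adjusted p = 0.765), the smallest spread between lines of the 10 genes. A far dimmer EED probe set, 210656_at, had signals of at most 217 and a mean of -0.45 ± 0.61, with 1 line of 4 higher.

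SUZ12, the scaffold that holds the complex together, was lower in NB-39-nu and SK-N-DZ and higher in the other lines. Probe set 212287_at went from 2026 to 1545 in NB-39-nu and, in SK-N-DZ, from 4648 to 3087, or 76.2% and 66.4% of control. It went from 2980 to 3362 in SH-SY5Y and from 2073 to 2314 in SK-N-BE. NB-39-nu and SK-N-DZ were the lines with the least BMI1 signal left, and 2 lines on each side give no test of that order. The mean was -0.16 ± 0.39 (SD, n = 4 lines; limma adjusted p = 0.754). The probe set shared with SUZ12P1, 213971_s_at, showed smaller differences: it read 827 and 780 in NB-39-nu and 1931 and 1830 in SK-N-DZ, with a mean of -0.03 ± 0.13. Among the dim SUZ12 probe sets, 1566191_at had a mean of -0.60 ± 0.71 and 1566190_at, under the filter, one of -0.33 ± 0.71.

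RBBP7, a histone chaperone shared with other chromatin complexes, was the member with 1 line apart from the rest. Its signal was lower in NB-39-nu, 14887 to 12389, and higher elsewhere: from 10460.4 to 11800.5 in SH-SY5Y, from 6079 to 6797 in SK-N-DZ, and from 8064 to 8806 in SK-N-BE. The log2 ratio was -0.26 in NB-39-nu and lay between 0.13 and 0.17 in the other lines. The mean was 0.05 ± 0.21 (SD, n = 4 lines; limma adjusted p = 0.899). These are single array pairs without a replicate.

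**Figure D2:**
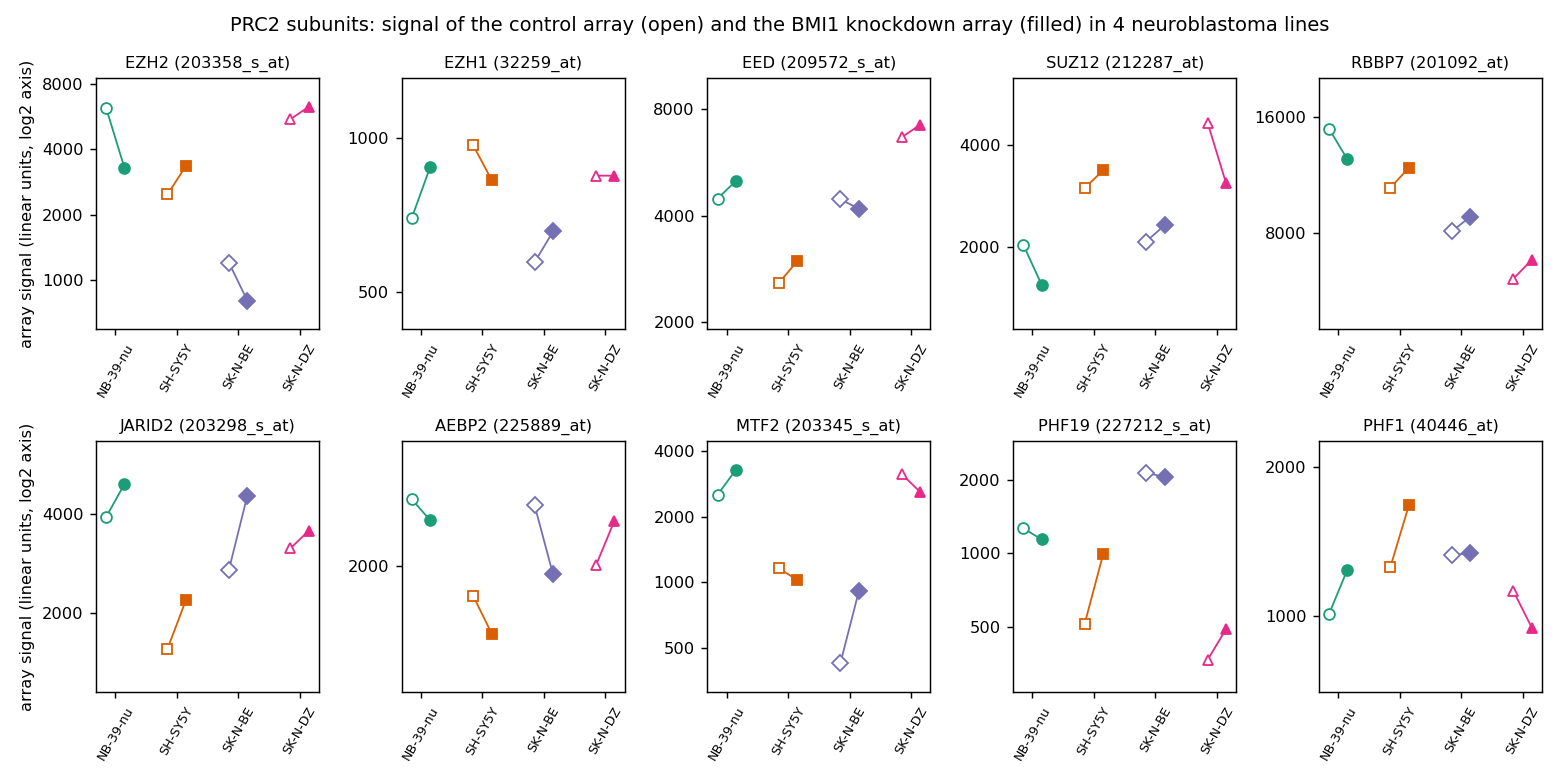
Array signal of the 10 genes (linear units on a log2 axis, own scale for each panel) in the control array (open symbols) and the knockdown array (filled symbols) of each line, for the probe set with the highest mean. JARID2 is higher in the knockdown array of all 4 lines; the slopes of the other genes differ in sign between lines.

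JARID2, a DNA-binding subunit that recruits PRC2 and modulates its activity, was the member with the largest mean change. Probe set 203298_s_at went from 3915 (control) to 4941 (knockdown) in NB-39-nu, from 1557 to 2188 in SH-SY5Y, from 3145 to 3559 in SK-N-DZ, and from 2708 to 4548 in SK-N-BE. All 4 lines were higher after knockdown, most in SK-N-BE and least in SK-N-DZ, while the 2 groups of arrays overlap. The log2 ratios were 0.75 for SK-N-BE, 0.49 for SH-SY5Y, 0.34 for NB-39-nu and 0.18 for SK-N-DZ. Their mean was 0.44 ± 0.24 (SD, n = 4 lines; SE 0.12), with a 95% interval from 0.17 to 0.70. It had an unadjusted limma p of 0.00484, rank 128 of 9888 genes, and did not pass after adjustment (limma adjusted p = 0.371).

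The second bright JARID2 probe set, 203297_s_at, was also higher in 4 of 4 lines but by less. It went from 2061 (control) to 2348 (knockdown) in NB-39-nu, from 1001 to 1064 in SH-SY5Y, from 1613 to 1811 in SK-N-DZ, and from 1668 to 2046 in SK-N-BE. Its mean was 0.18 ± 0.09 (SD, n = 4 lines), against 0.44 for the first, and its unadjusted limma p in the fit of all probe sets was 0.133. The remaining, dim probe set, 240674_at, lay under the filter, with a highest signal of 119. It was lower in 3 of 4 lines, with 55.9 and 8.48 in SH-SY5Y, while SK-N-DZ had 119 and 24.3. When all 3 probe sets were averaged with equal weight, the mean for JARID2 was -0.14 (limma adjusted p = 0.898). The direction given for JARID2 is therefore that of its 2 bright probe sets.

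The 3 genes whose pattern over the 8 arrays was most like that of JARID2 were KIAA0930, FARP1 and JOSD1. Likeness was the root mean square difference between gene-centred log2 levels, which was 0.11 for KIAA0930, 0.16 for FARP1 and 0.17 for JOSD1, where the levels of JARID2 themselves spread by 0.52. These genes had mean log2 changes of 0.48, 0.30 and 0.28. They were picked for likeness from the same arrays, so their agreement is a description.

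AEBP2, a zinc-finger subunit found in the same form of PRC2 as JARID2, was lower in 3 lines. Probe set 225889_at went from 2819 to 2529 in NB-39-nu, from 1712 to 1411 in SH-SY5Y and from 2731 to 1913 in SK-N-BE, and was higher only in SK-N-DZ, at 2007 and 2526. In SK-N-BE, where the JARID2 ratio was highest, the AEBP2 ratio was lowest, with 70.0% of control left. Its mean was -0.15 ± 0.35 (SD, n = 4 lines; limma adjusted p = 0.760). The dim probe set 235184_at, with signals from 55.2 to 134, had a mean of -0.01 ± 0.38.

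The Polycomb-like proteins bind DNA rich in CG dinucleotides and help bring PRC2 to it. MTF2 had 5 probe sets, all above the filter and all higher in the mean, from 0.06 for 203347_s_at to 0.39 for 209705_at. The 5 share a gene and an array, so they are no replicates of one another. Within lines they often disagreed. In SK-N-BE, 203345_s_at went from 427 to 910, a log2 ratio of 1.08, while 203347_s_at went from 743 to 631, one of -0.23. In SK-N-DZ, 203345_s_at was lower (3125 to 2587) and 209705_at higher (1396 to 2172). NB-39-nu had log2 ratios between -0.01 and 0.67 and SH-SY5Y between -0.24 and 0.27.

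The MTF2 probe set with the highest mean, 203345_s_at, gave 0.25 ± 0.62 (SD, n = 4 lines; limma adjusted p = 0.731), and -0.022 without SK-N-BE. Probe set 209705_at had an unadjusted limma p of 0.0461 and an adjusted p of 0.686 in the fit of all probe sets. That fit called 0 of the 24 member probe sets and 0% of all 27337. At an unadjusted p under 0.05 it gave 2 of 24, the other being JARID2 203298_s_at, beside 7.23% of all probe sets.

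PHF19 was higher in SH-SY5Y by each of its 3 probe sets. Probe set 227212_s_at went from 514 to 992 there, 227211_at from 336 to 486 and 225533_at from 226 to 359, for log2 ratios of 0.94, 0.52 and 0.65. In SK-N-DZ all 3 were also higher, by 0.41, 0.26 and 0.47. NB-39-nu differed from control by at most 0.20 on the log2 scale in either direction, and in SK-N-BE 225533_at went from 542 to 315 while the brighter ones stayed near control (2145 to 2063 and 1447 to 1473). The mean for 227212_s_at was 0.29 ± 0.50 (SD, n = 4 lines; limma adjusted p = 0.661).

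PHF1 was higher in NB-39-nu and SH-SY5Y and lower in SK-N-DZ by its bright probe set. Signals of 40446_at went from 1008 to 1240.5, from 1256 to 1676 and from 1122 to 945 in these lines, and were 1329 and 1338 in SK-N-BE. The mean was 0.12 ± 0.30 (SD, n = 4 lines; limma adjusted p = 0.822). The dimmer 202928_s_at, at 32.4 to 188, averaged -0.52 ± 0.57, lower in 3 of 4 lines, including both lines where 40446_at was higher. The 2 probe sets of PHF1 thus gave no common direction.

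**Figure D3:**
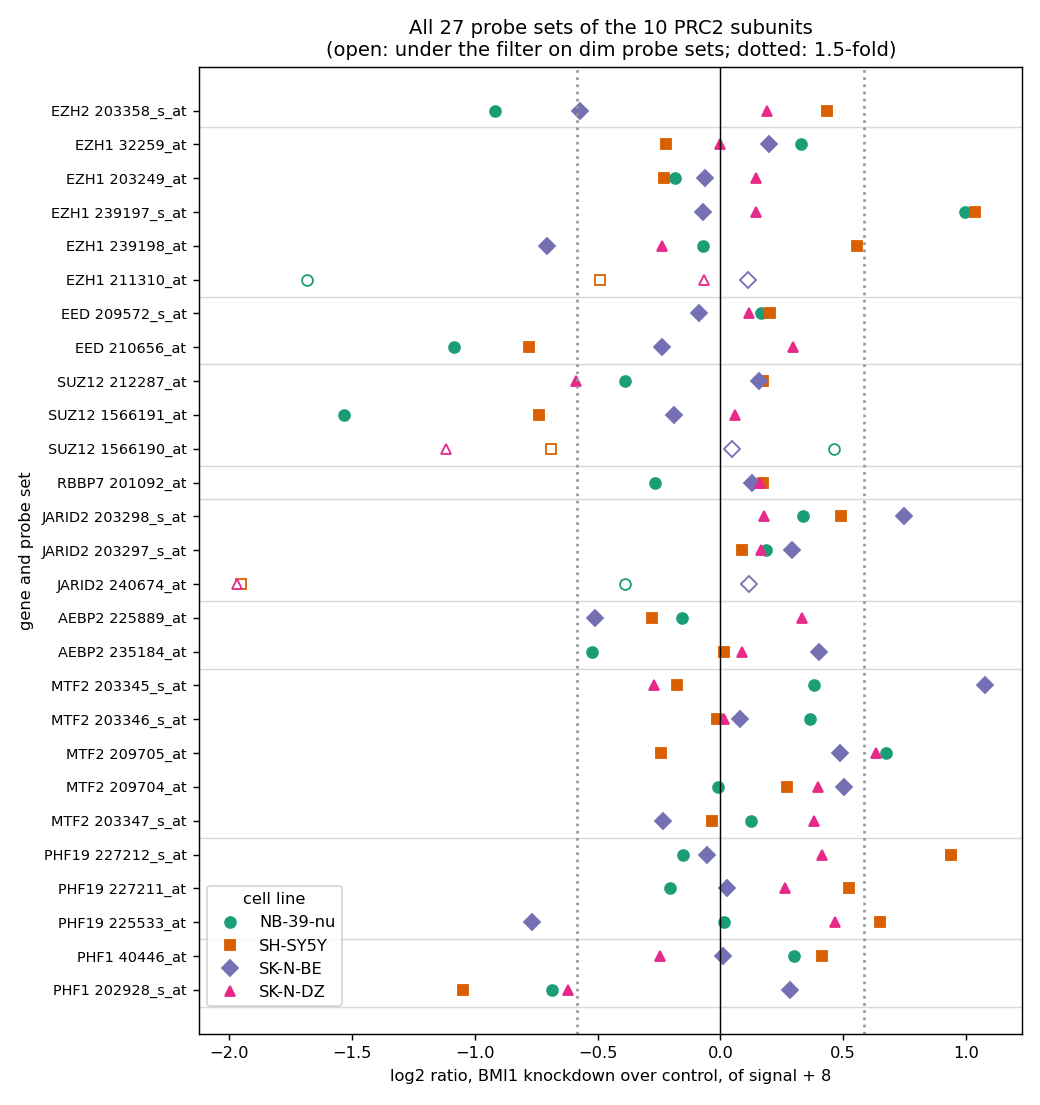
Log2 ratio of signal + 8, knockdown over control, of all 27 probe sets (rows) in each line (symbols); open symbols mark the 3 probe sets under the filter and dotted lines a 1.5-fold change. Both bright JARID2 probe sets lie to the right of 0 in all 4 lines, while the probe sets of EZH1, EED and PHF1 lie on different sides of 0.

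Within a line, between 3 and 6 of the 24 member probe sets above the filter differed by 1.5-fold or more. NB-39-nu had 6 of 24 (25.0%), 2 higher and 4 lower, beside 28.9% of all probe sets above the filter. SH-SY5Y also had 6 (25.0%), 3 higher and 3 lower, beside 17.1%. SK-N-BE had 4 of 24 (16.7%), 2 higher and 2 lower, beside 15.9%. SK-N-DZ had 3 of 24 (12.5%), 1 higher and 2 lower, beside 18.7%. Each line is 1 array pair, so these counts carry no test. A stricter filter at the 75th percentile left 16 member probe sets. Of these, SH-SY5Y had 1 past 1.5-fold, while SK-N-DZ, SK-N-BE and NB-39-nu had 2 each. The share of all probe sets past 1.5-fold under that filter was not counted, so these lower counts have no background beside them.

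The lines differed from one another far more than the arrays of a line. A limma F test over the lines, with the mean knockdown difference removed, called 8 of 10 members, beside 79.9% of all genes. Its error is the spread between the control and the knockdown array of a line around that mean difference. It therefore also holds differences between lines in the response to the knockdown. EZH1 and PHF1 did not pass (limma adjusted p = 0.119 and 0.137), and their control signals spanned 1.69-fold and 1.32-fold between lines. The pairwise contrasts between lines called 46.8% to 51.0% of all genes: 49.9% for NB-39-nu against SH-SY5Y, 46.9% against SK-N-BE and 46.8% against SK-N-DZ, 48.4% for SH-SY5Y against SK-N-BE and 51.0% against SK-N-DZ, and 50.3% for SK-N-BE against SK-N-DZ. They called between 4 and 6 of the 10 members each.

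Over both arrays of a line EZH2 was highest in SK-N-DZ, then NB-39-nu, SH-SY5Y and SK-N-BE; among the controls alone NB-39-nu was highest. Its level in SK-N-DZ was 5.90-fold that in SK-N-BE (limma adjusted p = 1.6e-04). SK-N-DZ and NB-39-nu did not differ beyond their spread (limma adjusted p = 0.322), nor did NB-39-nu and SH-SY5Y (0.0998), while SH-SY5Y was above SK-N-BE (limma adjusted p = 0.00293). EED had another order, SK-N-DZ, NB-39-nu, SK-N-BE and SH-SY5Y, over 2.49-fold. NB-39-nu and SK-N-BE did not differ beyond their spread for EED (limma adjusted p = 0.441), and the remaining neighbours did (0.00954 and 0.00463).

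For SUZ12 the order was SK-N-DZ, SH-SY5Y, SK-N-BE and NB-39-nu, over 2.14-fold, with no pair of neighbours past the threshold (limma adjusted p from 0.0653 to 0.335). RBBP7 ran from NB-39-nu through SH-SY5Y and SK-N-BE to SK-N-DZ, over 2.11-fold. NB-39-nu and SH-SY5Y did not differ beyond their spread for RBBP7 (limma adjusted p = 0.113), and the other neighbours did (0.0412 and 0.0431). Over both arrays of a line and by the brightest probe sets, SK-N-DZ thus had the highest EZH2, EED and SUZ12 signals. It also had the lowest RBBP7 signal of the 4 lines. Its EZH2 lead over NB-39-nu and its SUZ12 lead over SH-SY5Y were within the spread. Among the controls alone, the dim 210656_at of EED and 1566191_at of SUZ12 were highest in NB-39-nu. Neither passed the F test over the lines in the fit of all probe sets (limma adjusted p = 0.151 and 0.129).

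SK-N-BE lay at opposite ends for MTF2 and PHF19. All 5 MTF2 probe sets had their lowest control signal there, for example 427 in SK-N-BE against 2513 in NB-39-nu and 3125 in SK-N-DZ for 203345_s_at. All 3 PHF19 probe sets had their highest control signal there, with 2145 in SK-N-BE, 1268 in NB-39-nu and lower values, 514 and 365, in the remaining lines for 227212_s_at. By 227212_s_at, PHF19 differed between every pair of neighbours in its order of SK-N-BE, NB-39-nu, SH-SY5Y and SK-N-DZ (limma adjusted p = 0.0352, 0.0442 and 0.0423). The dimmer 225533_at did not pass the F test over the lines in the fit of all probe sets (limma adjusted p = 0.387). Its lowest control signal was in SH-SY5Y. For MTF2, NB-39-nu and SK-N-DZ differed by 0.01 on the log2 scale and both above SH-SY5Y (limma adjusted p = 0.00483 and 0.00486), with SK-N-BE lowest and just within the spread of SH-SY5Y (0.0538). Each probe set is read only against itself.

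JARID2 was lowest in SH-SY5Y by each of its 3 probe sets. SH-SY5Y was below each of the other lines for 203298_s_at (limma adjusted p = 3.8e-04 against NB-39-nu, 0.002 against SK-N-BE and 0.00264 against SK-N-DZ), and NB-39-nu, SK-N-BE and SK-N-DZ were not separated (0.0799 to 0.747). AEBP2 was also lowest in SH-SY5Y, below NB-39-nu (limma adjusted p = 0.0122) and just below SK-N-BE (0.0498), by probe set 225889_at; the dim 235184_at had its highest control signal there. Among the controls, EZH1 was highest in SH-SY5Y by its 2 brightest probe sets and by 211310_at, which lay under the filter. By the dim 239197_s_at and 239198_at it was highest in SK-N-DZ. EZH1 did not pass the F test over the lines (limma adjusted p = 0.119).

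The genes most like EZH2 over the 8 arrays were ACD, a protein of the telomere cap, RGMB, a co-receptor for bone morphogenetic proteins, and PGD, an enzyme of the pentose phosphate pathway. Their root mean square differences from EZH2 were 0.28, 0.30 and 0.31 on the log2 scale, where EZH2 itself spread by 1.02. Their mean log2 changes after knockdown were -0.03, -0.02 and -0.04, but a mean near 0 can hold changes of both signs. RGMB and ACD changed with the sign of EZH2 in each line, ACD barely so in NB-39-nu (1398 to 1395). PGD did so in all but SH-SY5Y, where it went from 1971 to 1891. Between lines, ACD read 1424 in the SK-N-DZ control and 374 in the SK-N-BE control. These genes too were picked for likeness from the same arrays, so their agreement is a description.

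In each line the direction of EZH2 was that of most proliferation genes. A list of 17 genes for DNA replication and mitosis was taken, since EZH2 is a textbook target of the E2F factors that control many of them. In NB-39-nu 16 of 17 were lower, with a median log2 ratio of -0.61 beside -0.92 for EZH2. All 17 were higher in SH-SY5Y, where the median was 0.64 and EZH2 was at 0.43. SK-N-BE had 12 of 17 lower and a median of -0.16, and EZH2 at -0.57 lay below all 17. SK-N-DZ had 16 of 17 higher and a median of 0.16 beside 0.19. The median of all genes was between 0.02 and 0.03 in each line. Over the 4 lines 0 of the 17 passed (lowest limma adjusted p = 0.631; 0 at an unadjusted p under 0.05), and the part of proliferation in the EZH2 values was not tested.

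**Figure D4:**
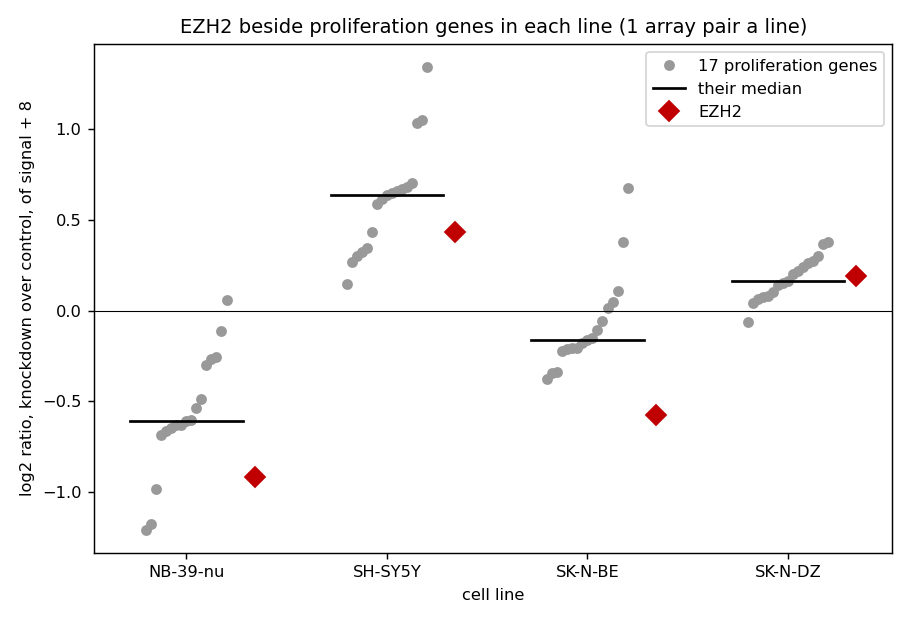
Log2 ratio of signal + 8, knockdown over control, of 17 proliferation genes (grey points, ordered by value), their median (black line) and EZH2 (red diamonds) in each line, from 1 array pair a line. EZH2 has the sign of the median in all 4 lines and lies below all 17 genes in SK-N-BE.

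Of the 17, those with the largest mean changes were RRM2, a subunit of ribonucleotide reductase, at 0.30 ± 0.73 (SD, n = 4 lines), the replicative helicase subunit MCM3 at -0.22 ± 0.70, the G1 cyclin CCNE1 at 0.21 ± 0.14 and the mitotic kinase CDK1 at 0.20 ± 0.34. CCNE1 was higher in all 4 lines. In NB-39-nu the lowest ratios were those of MCM3 (7523 to 3251) and the cell division marker MKI67 (1947 to 855). In SH-SY5Y, RRM2 went from 1807 to 4595. MKI67 was chosen after its values were seen. The 6 members with an E2F match near their start were set beside the proliferation median by their brightest probe set. EZH2 and PHF19 had its sign in all 4 lines, and EZH1, SUZ12, MTF2 and AEBP2 did not. EZH1 and MTF2 went against it or were level in each line. The members without a match, EED, JARID2, PHF1 and RBBP7, did not have it in all lines either. EED departed from it only in NB-39-nu (0.17) and RBBP7 only in SK-N-BE (0.13). PHF19 was singled out above for these signs, and the part of a match was not tested. For PHF19 the ratio in SK-N-BE was only -0.06. Its other probe sets did not have that sign throughout, with 227211_at at 0.02 in SK-N-BE and 225533_at at 0.01 in NB-39-nu.

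Regulators of E2F-driven genes were read from a list of 8. None of the 8 passed (lowest limma adjusted p = 0.306), 2 had an unadjusted p under 0.05, beside 9.33% of all genes, and 5 were higher and 3 lower in the mean. RBL2, the pocket protein p130 that represses E2F targets in resting cells, was lower in 4 of 4 lines, from 3542 to 2243 in NB-39-nu, 883 to 571 in SH-SY5Y, 1569 to 916 in SK-N-DZ, and 2970 to 2577 in SK-N-BE. Its mean was -0.56 ± 0.25 (SD, n = 4 lines; limma adjusted p = 0.306). RB1, the retinoblastoma protein, was at -0.21 ± 0.04 and also lower in 4 of 4 (limma adjusted p = 0.522), as were 7.65% of all genes. The remaining largest changes were E2F4 at 0.30 ± 0.26, a repressive E2F, and E2F3 and E2F6 at 0.13 each.

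Other PRC2 partners were read in the same way. Of a list of 5, 4 were tested and 0 passed (lowest limma adjusted p = 0.621; 0 at an unadjusted p under 0.05), with 3 higher and 1 lower. RBBP4, the paralogue of RBBP7, was at -0.01 ± 0.24 (SD, n = 4 lines). Like RBBP7 it was lower in NB-39-nu (8558 to 7045) and higher in SH-SY5Y (5717 to 6486) and SK-N-DZ (8096 to 9306), and unlike RBBP7 it was lower in SK-N-BE (8681 to 7926). LCOR and LCORL, whose loci encode PRC2-binding proteins, were at 0.20 ± 0.44 and 0.24 ± 0.27, and EPOP, a partner of the Polycomb-like form, at 0.03 ± 0.11. EZHIP, an inhibitor of EZH2, lay under the filter with signals of at most 42.1.

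Enzymes that act against the PRC2 mark on the same residue also did not pass, 0 of 4 (lowest limma adjusted p = 0.751; 0 at an unadjusted p under 0.05), with 2 higher and 2 lower. The demethylases KDM6A and KDM6B were at 0.10 ± 0.21 and 0.07 ± 0.36 (SD, n = 4 lines). The acetyltransferases CREBBP and EP300 were at -0.10 ± 0.11 and -0.21 ± 0.48. The largest EP300 change was in SK-N-BE, where its signal went from 1268 to 681.

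Genes reported elsewhere as EZH2 targets were followed as a list of 12, of which 6 were bright enough to test. None of the 6 passed (lowest limma adjusted p = 0.511), and 1 had an unadjusted limma p under 0.05, beside 9.33% of all genes. Of the 6, 5 were higher and 1 lower in the mean, with a median log2 change of 0.20. In NB-39-nu, where EZH2 was lowest relative to control, 6 of 6 were higher with a median of 0.98. The median of all genes in that line was 0.03, and the share of all genes higher there was not counted. In SK-N-BE, where EZH2 was also lower, 2 of 6 were higher with a median of -0.11. SH-SY5Y and SK-N-DZ each had 3 of 6 higher, with medians of -0.03 and -0.22. The direction was thus not shared by the 2 lines in which EZH2 was lower.

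CLU, a secreted chaperone, had the largest mean of the 6 tested. It went from 927 to 2184 in NB-39-nu, from 840.4 to 1250.3 in SH-SY5Y, from 2497 to 2800.3 in SK-N-DZ, and from 7803 to 7521 in SK-N-BE, for a mean of 0.48 ± 0.56 (SD, n = 4 lines; limma adjusted p = 0.511). CDKN1C, which encodes the cell cycle inhibitor p57, went in NB-39-nu from 383 to 2838 and had a log2 ratio of -1.50 in SK-N-DZ at low signals (41.4 and 9.43), -0.59 in SH-SY5Y and 0.37 in SK-N-BE. SLIT2, an axon guidance ligand, was at 0.22 ± 0.50, and CASZ1, a zinc-finger transcription factor of sympathetic differentiation, at 0.17 ± 0.55, with -0.61 in SK-N-DZ. RUNX3, NGFR, CDH1 and TIMP3 lay under the filter.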

How the data were processed

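Expression of 4 control and 4 BMI1 knockdown samples was read from the deposited table of array intensities, on a linear scale. They were made with MAS5 in GCOS, per the submitters' processing notes, which give no versions; the values had a mean of 500 after trimming 2% at each end. The table holds no detection calls, and scanner files were not used here. The number of arrays limits the precision. GEO's platform annotation gave 1 gene for 41097 probe sets, several for 1801 and none for 11777; 41043 took the current symbol through the RefSeq gene table of GRCh38.p14. The 1 BMI1 probe set, shared with a read-through transcript, was kept as BMI1.

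Values were converted to log2(signal + 8), and folds of dim probe sets are understated. The brightest probe set by mean stood for each gene, and the 9888 genes (or 27337 probe sets) above the median mean were tested. limma 3.58.1 in R 4.3.3 (lmFit, eBayes with trend) was fitted with cell line as a block, and p-values were Benjamini-Hochberg adjusted over all features with a threshold of 0.05. The labels name the line of each array, which pairs the arrays: each knockdown array correlated best with its own line's control (lowest r 0.934 over probe sets, where the highest r between lines was 0.886). No label says that arrays come from separate cultures. Differences between lines used the same fit. The fitting code was tested on simulated data.

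Members, lists and rules were chosen with earlier results of these data known. Named genes are the 10 members, BMI1, up to 4 genes of each list by the largest mean change, and the 3 genes closest to EZH2 and to JARID2; other names were chosen after their values were seen. Alternatives were the pseudocount, the filter, normalization, trend, array weights, block, probe set choice, and leaving out each line.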

Additional observations from a re-analysis of the deposited data

Results flagged for a closer look

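Of 30 groups of 4 values tested (control levels, knockdown levels and log2 ratios of the 10 genes), 1 had a value far from the others by Dixon's criterion at the 95% level. Chance marks about 1 in 20 such groups. It was the log2 ratio of RBBP7 in NB-39-nu, at -0.26, where the other 3 lines lay between 0.13 and 0.17 and the gap was 0.893 of the whole range. The signals were 14887 and 12389 in that line.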

How the results depend on the processing

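No PRC2 gene and no PRC2 probe set passed the knockdown test under any alternative run. The fit without the replicate block kept 0 members, with the same mean changes (for JARID2 0.44, limma adjusted p = 1.00), and called 0 genes in all. The lowest adjusted p of JARID2 was 0.240, with the filter at the 75th percentile. The call over all genes was 1 in the main setting, 0 with the mean of all probe sets or without the trend, and 2 with array weights, quantile normalization, no filter, the filter at the 75th percentile or a pseudocount of the table median. It ran from 0 to 2 when a line was left out. Without NB-39-nu or SH-SY5Y it was 2, and without SK-N-BE or SK-N-DZ 0. Members moving the same way in all lines numbered 1, 0 with the mean of all probe sets, and from 1 to 3 with a line left out. The members called between lines numbered 6 to 9, with 6 without SH-SY5Y and 9 without NB-39-nu. The filter at the 75th percentile, which left out EZH1 and PHF19, gave 7. The share of all genes called between lines was not counted in these alternatives, so the counts have no background beside them.

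With the mean of all probe sets, which gives dim ones equal weight, the mean change reversed for EED (-0.18), EZH1 (-0.026), JARID2 (-0.14) and PHF1 (-0.20). Without NB-39-nu it reversed for EZH1 (-0.0091, range over lines left out -0.0091 to 0.17) and EZH2 (0.016, range -0.43 to 0.016), and without SK-N-BE for MTF2 (-0.022, range -0.022 to 0.43); the causes were not tested. Member probe sets past 1.5-fold fell with the filter at the 75th percentile, which leaves 16 of 24. SH-SY5Y then had 1, and SK-N-DZ, SK-N-BE and NB-39-nu had 2 each, and the share of all probe sets was not counted. With a pseudocount of the table median SH-SY5Y had 3 and SK-N-DZ 1. SK-N-DZ had 1 with median centring and 5 with no filter. The median change of all genes was 0.03, and 0.02 and -0.01 under quantile normalization and median centring. With 1 array per line and condition, differences within the spread between lines could not be resolved.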
